A study of Mus musculus with 6 samples.

Results

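The genes described here encode WNT ligands, their receptors, secreted inhibitors, effectors and feedback targets, as transcribed in mouse cumulus granulosa cells, the somatic cells that surround the oocyte. They were chosen by name from the deposited comparison: symbols of Wnt, Fzd, Dkk, Sfrp or Rspo followed by a digit, plus Lrp5, Lrp6, Ctnnb1, Axin1, Axin2, Lef1, Tcf7, Tcf7l1, Tcf7l2, Lgr4, Lgr5, Znrf3, Rnf43, Nkd1 and Wif1, with a base mean above 3.3. Base mean is the average over libraries of read counts divided by each library's size factor, in normalized counts. The names matched 56 rows of 24982, and 41 of them passed the limit and are the members. All 41 had an adjusted p, among 14835 rows tested. The 15 rows outside the limit were Wnt1, Wnt3, Wnt3a, Wnt7a, Wnt8a, Wnt8b, Wnt9b, Wnt10a, Rspo2, Rspo3, Rspo4, Fzd10, Dkk1, Dkk4 and Wif1, of which 5 were listed at 0. In the authors' deposited table the member of lowest base mean was Wnt16 at 4.05, and the highest row outside the limit was Rspo4 at 1.54.

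Both groups were cumulus granulosa cells of Kun-Ming mice, an outbred stock, with 3 libraries labelled control and 3 labelled Atg5-KD, numbered 2, 3 and 4 in each. The Atg5-KD cells were transfected with short hairpin RNAs against Atg5, a gene needed to attach LC3 to the growing autophagosome membrane. The same treatment text stands on the control samples, and neither what the control cells received nor the age of the mice is given in the sources used here. No label names separate cultures or mice within a group, so p-values cover only library-to-library spread, possibly technical. The deposited table pools the libraries, and values per library were not analysed here. Group levels below are therefore estimates, made from the base mean and the fold change, and errors are the standard errors (SE) that the authors' deposited table gives on the log2 scale. The direction, Atg5-KD over control, was taken from how the table's name orders its groups, and if that were turned every rise below would be a fall. Atg5 itself stood at -0.06 ± 0.14 (SE, log2 fold change, adjusted p = 0.822) in the authors' deposited table, so the target transcript does not check the labels.

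WNT proteins are secreted, lipid-modified ligands that bind a Frizzled receptor together with the co-receptor LRP5 or LRP6. Binding stops a complex built on Axin, APC and GSK3 from destroying beta-catenin, which then acts in the nucleus with TCF/LEF factors, while other ligands signal through Frizzled proteins without beta-catenin. R-spondins, through LGR receptors, remove the ubiquitin ligases ZNRF3 and RNF43 that clear Frizzled from the cell surface. In the ovary Wnt4 and Rspo1 are required for female development of the gonad, Fzd4 for the corpus luteum, and Sfrp4 is known from granulosa cells that luteinize after the gonadotropin surge.

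Ligands, inhibitors and nuclear factors of the pathway moved in different directions. Wnt4, Wnt11, Wnt5a and Wnt10b rose together with the receptor genes Lgr4 and Lrp6, the inhibitor Sfrp4 and the feedback target Axin2. Fzd2, Fzd1, Lrp5, the inhibitors Dkk3 and Sfrp2, and the factors Tcf7l1, Tcf7l2 and Tcf7 fell. Of the 41 members, 16 (39.0%) were called in the authors' deposited table, namely 8 higher (19.5%) and 8 lower (19.5%) at an adjusted p under 0.05 (DESeq2 Wald test, Benjamini-Hochberg over 14835 rows). Over all tested rows 20.9% were called in either direction, 10.4% higher and 10.5% lower. Among members with a base mean of at least 100, where small changes are easier to call, 15 of 25 (60.0%) were called, 7 higher (28.0%) and 8 lower (32.0%). Of all such rows 25.6% were called, 12.5% higher and 13.0% lower. The members had a median log2 fold change of -0.14 in the authors' deposited table, beside 0.00 over all tested rows. These counts describe a set chosen with earlier results of these data known. Every value was also rescaled to an estimated all-read total, in which the ribosomal RNA locus Rn45s holds 10.4% of the summed base means. All log2 fold changes then shifted by -0.30, and 3 members were higher and 15 lower. Of all 14835 tested rows 42.3% were called in that setting, 534 higher and 5735 lower. The members had a median of -0.44 there, beside -0.29 over all tested rows. Rn45s itself, which makes the precursor of ribosomal RNA, was higher in Atg5-KD at 4.24 ± 0.32 (SE, adjusted p = 2.55e-37) in the authors' deposited table, although the libraries are labelled poly(A) RNA. Scaled to all reads other than Rn45s, a setting chosen after seeing the data, values shifted by -0.03, and 8 members were higher and 8 lower. The part of the Rn45s difference in the members' values was not tested.

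**Figure D1:**
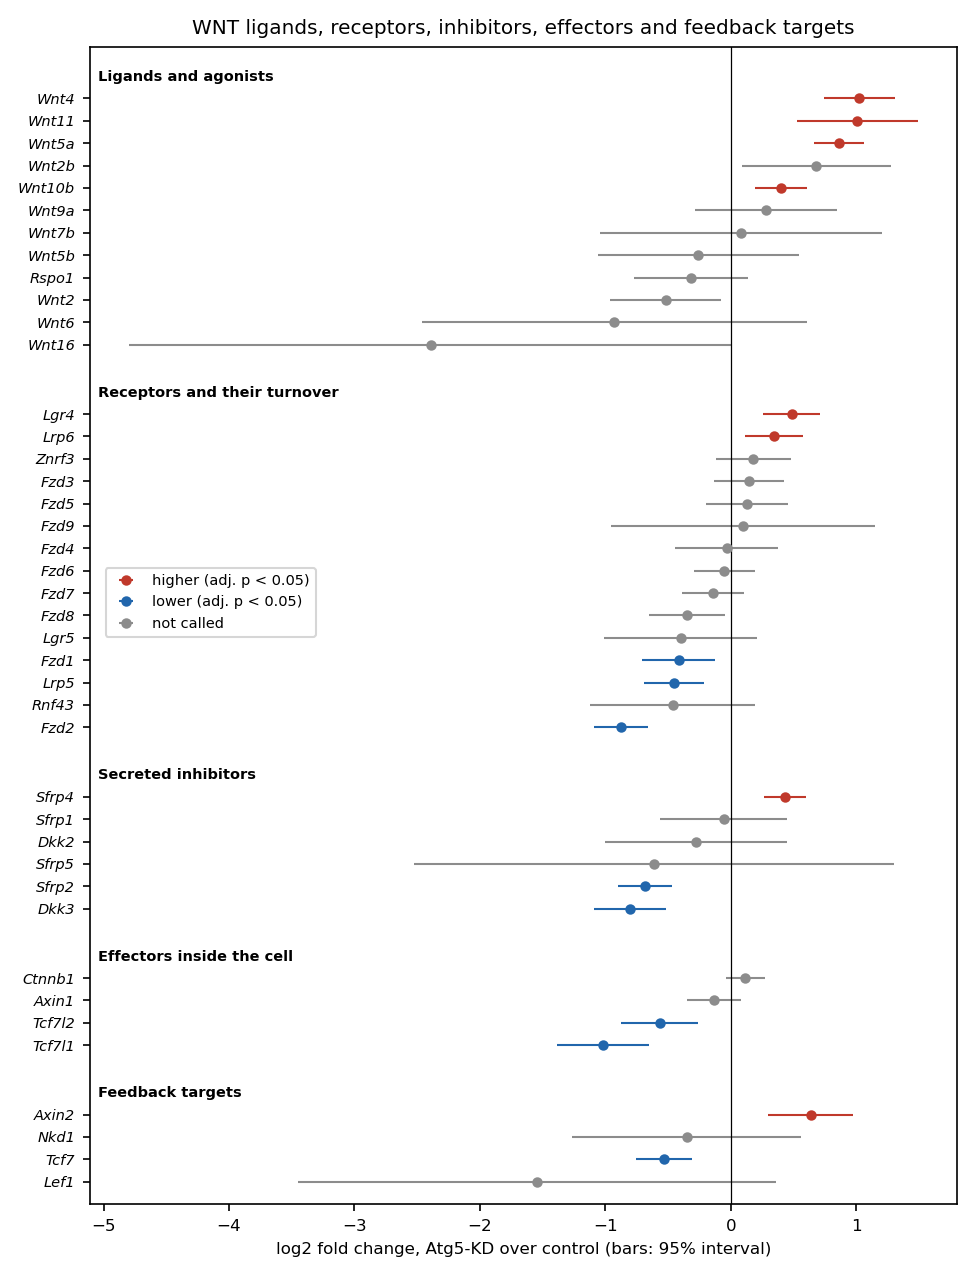
Log2 fold change of the 41 members, Atg5-KD over control, grouped by role (points: deposited values, bars: 95% interval, red and blue: higher and lower at an adjusted p under 0.05). Of the ligands, 4 were called higher, from Wnt10b at 0.40 to Wnt4 at 1.02. A shift of -0.30 for scaling to all reads would leave 3 of them called. The intervals of Wnt2b, 0.09 to 1.27, and Wnt2, -0.96 to -0.08, also clear 0, but neither gene was called.

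Promoter stretches of 4 called members are shown because they bear on whether genes that moved carry the TCF/LEF core motif near their start. RefSeq windows (GRCm38.p6, the build mm10 that the submitters' processing notes name) matched 27 of the 41 members with 37 start sites. The 250 bases before each start were searched on both strands for the TCF/LEF core ATCAAAG and for its variants TTCAAAG and also AACAAAG and also TACAAAG, which differ in their first letters so that a site matches 1 of them. A match stood in 5 of the 37 windows, 13.5%, beside 14.8% of all 32851 windows and 10.4% of the 14539 windows of tested genes. Among called members, Wnt11 and an internal start of Tcf7l2 held a match. Axin2, Fzd1, Lgr4, Sfrp2, Tcf7, Tcf7l1, Wnt10b and Wnt4 had windows without one, of which Axin2 and Sfrp2 are shown, 1 that rose and 1 that fell. Some windows overlap annotated exons, with 209 of the 250 bases for Tcf7l1, 146 for Wnt4 and 67 in a window of Tcf7. The 4 windows shown hold 0 such bases. Each stretch reads 5′ to 3′ on the gene's strand up to the base before the start, with the match in capitals.
Wnt11, plus strand, chr7:98834862-98835111: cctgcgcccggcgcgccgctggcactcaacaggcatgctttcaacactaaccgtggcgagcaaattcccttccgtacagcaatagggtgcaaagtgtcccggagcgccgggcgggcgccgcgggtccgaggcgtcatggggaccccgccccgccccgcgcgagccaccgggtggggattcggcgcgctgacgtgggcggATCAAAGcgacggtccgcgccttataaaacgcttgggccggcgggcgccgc
Tcf7l2, plus strand, chr19:55895071-55895320: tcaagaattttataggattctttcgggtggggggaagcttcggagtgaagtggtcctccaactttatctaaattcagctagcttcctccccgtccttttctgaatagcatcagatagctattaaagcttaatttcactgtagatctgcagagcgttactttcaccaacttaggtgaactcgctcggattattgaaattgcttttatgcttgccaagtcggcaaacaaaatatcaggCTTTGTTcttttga
Axin2, plus strand, chr11:108920099-108920348: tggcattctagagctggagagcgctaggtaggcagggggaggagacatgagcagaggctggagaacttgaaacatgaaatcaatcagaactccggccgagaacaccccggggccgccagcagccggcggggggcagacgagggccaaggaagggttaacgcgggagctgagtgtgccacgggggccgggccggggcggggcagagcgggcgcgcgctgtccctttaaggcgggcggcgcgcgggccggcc
Sfrp2, plus strand, chr3:83766071-83766320: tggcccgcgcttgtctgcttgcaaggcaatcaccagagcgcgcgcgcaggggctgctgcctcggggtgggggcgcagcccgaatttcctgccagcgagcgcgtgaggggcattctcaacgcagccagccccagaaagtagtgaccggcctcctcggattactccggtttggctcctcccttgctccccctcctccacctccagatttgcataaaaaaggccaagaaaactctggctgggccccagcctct
The capitals in Wnt11 start 51 bases before its start site and those in Tcf7l2 14 bases before, where they are the reverse strand of AACAAAG. Of the 5 members with a match, Wnt11 rose and Tcf7l2 fell. Fzd7 at -0.14, Wnt5b at -0.26 and Lef1 at -1.55 missed the threshold in the authors' deposited table. The matches of Wnt5b and Lef1 also stand before internal starts. The windows differ in base composition, with a GC content of 70.8% for Wnt11, 69.2% for Axin2, 63.6% for Sfrp2 and 40.8% for Tcf7l2, and with 37, 24, 16 and 7 CG pairs. No match says only that these letters are not in these windows.

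Of 12 ligand genes, 11 Wnt genes and Rspo1, the authors' deposited table calls 4 higher and 0 lower, with a median log2 fold change of 0.18 that became -0.12, with 3 higher and 2 lower, when scaled to all reads. The shares of all tested rows were 10.4% higher and 10.5% lower as deposited. On the all-read scale 534 of all 14835 were higher and 5735 lower. The 11 Wnt genes summed to an estimated 1773 normalized counts per kilobase of exon in control and 2778 in Atg5-KD on the deposited scale. Scaling to all reads would lower the Atg5-KD sum relative to control. Wnt10b, Wnt5a and Wnt4 made up 44.1%, 38.6% and 10.6% of the sum in control, and 37.1%, 44.9% and 13.8% in Atg5-KD. Wnt10b thus stood first in control and Wnt5a in Atg5-KD, by estimates whose difference within a group was not tested. The length of the longest transcript in place of all exons gave the same order in control, with 981 for Wnt10b and 764 for Wnt5a.

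Wnt5a, a ligand best known for signals without beta-catenin (chromosome 14, 28504750 to 28527448), was estimated at 5355 normalized counts in control and 9757 in Atg5-KD. The authors' deposited table gives it 0.87 ± 0.10 (SE, log2 fold change, adjusted p = 1.85e-15), a 1.82-fold rise with a 95% interval from 0.67 to 1.06 on the log2 scale. Wnt4, the ligand of ovarian development that granulosa cells also make (chromosome 4, 137277489 to 137299726), was estimated at 787 and 1602. At 1.02 ± 0.15 (SE, adjusted p = 9.91e-11) it had the highest log2 fold change of the 41 members in the authors' deposited table. By base mean per kilobase, pooled over both groups, Wnt5a stood at percentile 96.5 of all tested genes and Wnt4 at percentile 83.2. Wnt11, which signals mainly without beta-catenin, was far scarcer, estimated at 53.7 and 108 normalized counts. It stood at 1.01 ± 0.24 (SE, adjusted p = 0.000487) in the authors' deposited table, a 2.01-fold rise whose interval, 0.53 to 1.49, covers those of Wnt4 and Wnt5a. Wnt10b, a ligand of the beta-catenin branch, was estimated at 2659 and 3507. Its change was smaller, 0.40 ± 0.10 (SE, adjusted p = 0.00144) in the authors' deposited table, and its interval, 0.19 to 0.60, lies below those of Wnt4 and Wnt5a. Scaled to all reads, Wnt10b was no longer called, at 0.10.

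The other 8 ligands missed the threshold. Wnt2, made by granulosa cells, was estimated at 142 and 99.0 normalized counts, with -0.52 ± 0.22 (SE, adjusted p = 0.0833) in the authors' deposited table. Its value lies on the opposite side of 0 from its close relative Wnt2b, which had 0.68 ± 0.30 (SE, adjusted p = 0.0962) in the authors' deposited table. Wnt2 was called lower when scaled to all reads, at -0.82, and Wnt2b was called higher after removal of the trend with GC and length, at 0.89. Rspo1, the R-spondin of the developing ovary, had -0.32 ± 0.23 (SE) in the authors' deposited table and was called lower, at -0.62, when scaled to all reads. Wnt9a, Wnt5b, Wnt7b, Wnt6 and Wnt16 had base means from 4.05 to 53.0 in the authors' deposited table. Their errors ran from 0.29 for Wnt9a to 1.23 for Wnt16 in the authors' deposited table, so changes of the size seen in Wnt4 were not detectable at the depth of Wnt6 or Wnt16.

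**Figure D2:**
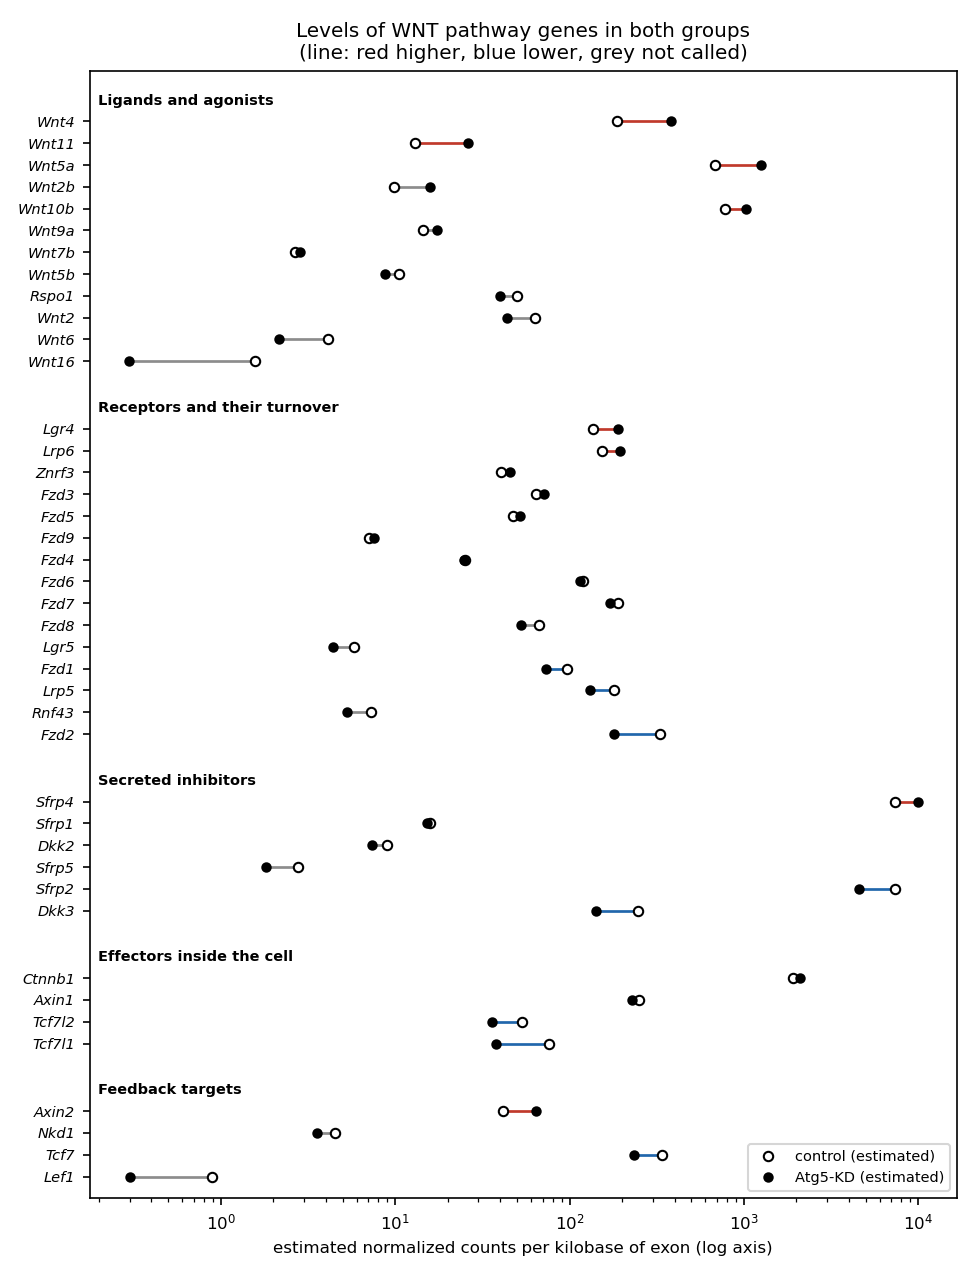
Estimated level of each member per kilobase of exon on a log axis, open circles for control and filled circles for Atg5-KD, with the joining line coloured by the call. Sfrp4 and Sfrp2 lie at the right, at 7348 and 7361 in control, moving apart to 9902 and 4586 in Atg5-KD.

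Receptor genes moved in both directions, by member. Of 15, the authors' deposited table calls 2 higher and 3 lower, with a median log2 fold change of -0.05 that became -0.35, with 0 higher and 6 lower, when scaled to all reads. Of the 9 Frizzled genes, 0 rose and 2, Fzd2 and Fzd1, fell. Their estimated summed level per kilobase was 948 in control and 748 in Atg5-KD. Fzd2, a receptor encoded by a single exon (chromosome 11, 102604396 to 102608058), accounted for 34.9% of the sum in control and 24.1% in Atg5-KD. It was estimated at 1211 and 660 normalized counts and had -0.88 ± 0.11 (SE, adjusted p = 1.15e-13) in the authors' deposited table, a 1.83-fold fall. Fzd1, a close relative of Fzd2 and Fzd7, was estimated at 408 and 306. Its value was -0.42 ± 0.15 (SE, adjusted p = 0.0274) in the authors' deposited table, and the call ended, at -0.24, after removal of the trend with GC and length. Fzd7, next in level at 189 per kilobase in control, had -0.14 ± 0.13 (SE) in the authors' deposited table, with an interval from -0.39 to 0.10 that does not reach that of Fzd2, -1.09 to -0.66.

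Fzd8 at -0.35, Fzd6 at -0.05, Fzd4, the receptor of the corpus luteum, at -0.03, Fzd9 at 0.10, Fzd5 at 0.13 and Fzd3 at 0.15 missed the threshold in the authors' deposited table. For Fzd4 the interval ran from -0.44 to 0.38, which leaves changes of either sign within it. Scaled to all reads, Fzd6, Fzd7 and Fzd8 were also called lower, at -0.35, -0.44 and -0.65.

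The paired co-receptors changed in opposite directions. Lrp6 (chromosome 6, 134446476 to 134566965) was estimated at 2089 normalized counts in control and 2652 in Atg5-KD, with 0.34 ± 0.12 (SE, adjusted p = 0.0212) in the authors' deposited table. Lrp5 (chromosome 19, 3584828 to 3686564) was estimated at 1756 and 1284, with -0.45 ± 0.12 (SE, adjusted p = 0.00249) in the authors' deposited table. The intervals, 0.11 to 0.58 and -0.69 to -0.21, do not overlap, though the difference between both genes was not tested. Per kilobase of exon, Lrp5 stood above Lrp6 in control, 180 to 153, and below it in Atg5-KD, 132 to 194. That order in control depends on the length used. With the length of the longest transcript, Lrp6 stood above Lrp5 in control already, 223 to 197. The rise of Lrp6 rests on the processing. It was 0.10 after removal of the trend with GC and length and 0.05 when scaled to all reads, and was called under neither, while Lrp5 was called lower under both.

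Lgr4, the R-spondin receptor, was estimated at 802 and 1122 normalized counts and had 0.48 ± 0.11 (SE, adjusted p = 0.000349) in the authors' deposited table, which became 0.19 and was not called when scaled to all reads. Its relative Lgr5, which marks stem cells of several epithelia and cells of the ovarian surface, was estimated at 59.4 and 45.0, with -0.40 ± 0.31 (SE) in the authors' deposited table. The ligases that clear Frizzled also missed the threshold, with 0.18 ± 0.15 (SE) for Znrf3 and -0.46 ± 0.33 (SE) for Rnf43 in the authors' deposited table. Per kilobase Znrf3 stood at 40.3 in control and Rnf43 at 7.31.

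Secreted inhibitors held the most abundant members, Sfrp4 and Sfrp2, which moved apart. Of 6 members, 1 rose and 2 fell in the authors' deposited table, with a median log2 fold change of -0.44, and -0.74 with 0 higher and 2 lower when scaled to all reads. The shares of all tested rows were 10.4% higher and 10.5% lower as deposited. On the all-read scale 534 of all 14835 were higher and 5735 lower. Sfrp4, a secreted Frizzled-related protein of luteinizing granulosa cells (chromosome 13, 19623104 to 19632994), was estimated at 30705 normalized counts in control and 41382 in Atg5-KD. It had 0.43 ± 0.09 (SE, adjusted p = 1.05e-05) in the authors' deposited table, or 0.13 and not called when scaled to all reads. Sfrp2, another of these proteins (chromosome 3, 83766321 to 83774316), was estimated at 15849 and 9874, with -0.68 ± 0.11 (SE, adjusted p = 2.66e-08) in the authors' deposited table. Per kilobase both genes had close estimates in control, 7348 for Sfrp4 and 7361 for Sfrp2. By base mean per kilobase, pooled over both groups, they stood at percentiles 99.8 and 99.7 of all tested genes. Of the summed level of the 4 Sfrp members, Sfrp4 took 49.89% in control and 68.3% in Atg5-KD, and Sfrp2 49.98% and 31.6%. As deposited that sum was close in both groups, 14728 and 14506 per kilobase. Scaling to all reads would lower the Atg5-KD sum relative to control. Sfrp1, at -0.06 ± 0.26 (SE) in the authors' deposited table, and Sfrp5, at a base mean of 4.38, took 0.108% and 0.0189% of the control sum.

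Dkk3, a Dickkopf family protein whose part in WNT signalling is less settled than that of Dkk1, was estimated at 831 and 477 normalized counts (chromosome 7, 112116017 to 112159057). It had -0.80 ± 0.15 (SE, adjusted p = 1.01e-06) in the authors' deposited table, a 1.74-fold fall. Dkk2, which binds the LRP co-receptors, had -0.28 ± 0.37 (SE) in the authors' deposited table at a base mean of 30.3, and Dkk1 was listed at 0.

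Among 4 effectors inside the cell, the factors Tcf7l1 and Tcf7l2 fell and Ctnnb1 and Axin1 missed the threshold. As deposited, 10.5% of all tested rows were called lower. All 4 effectors were called lower when scaled to all reads, as were 5735 of all 14835 tested rows. The median of all tested rows was -0.29 in that setting. Ctnnb1, which encodes beta-catenin (chromosome 9, 120929216 to 120960507), was estimated at 9983 normalized counts in control and 10820 in Atg5-KD. It had 0.12 ± 0.08 (SE, adjusted p = 0.323) in the authors' deposited table, with an interval from -0.04 to 0.27, and scaled to all reads it became -0.18 and was called lower. Axin1, the scaffold of the destruction complex, had -0.13 ± 0.11 (SE, adjusted p = 0.427) in the authors' deposited table. Tcf7l1, mostly a repressor of WNT targets (chromosome 6, 72626378 to 72789254), was estimated at 299 and 148. Its value of -1.02 ± 0.19 (SE, adjusted p = 1.52e-06) in the authors' deposited table was the largest called fall among the members, 2.02-fold. Tcf7l2, which acts with beta-catenin on many targets (chromosome 19, 55741820 to 55933654), was estimated at 468 and 316, with -0.57 ± 0.16 (SE, adjusted p = 0.00289) in the authors' deposited table. These TCF calls held when scaled to all reads and after removal of the trend with GC and length, where Tcf7l1 stood at -0.77 and Tcf7l2 at -0.69.

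The genes listed as feedback targets did not move together. Lgr5, Znrf3 and Rnf43 are known WNT targets too, but are counted above with the receptors, where they missed the threshold. Axin2, a negative regulator that WNT signalling itself induces (chromosome 11, 108920349 to 108950783), was estimated at 227 and 354 normalized counts. It had 0.64 ± 0.17 (SE, adjusted p = 0.00216) in the authors' deposited table, a 1.56-fold rise, and 0.34 without a call when scaled to all reads. Tcf7, a TCF factor and target (chromosome 11, 52252371 to 52283014), was estimated at 885 and 612 and had -0.53 ± 0.11 (SE, adjusted p = 6.36e-05) in the authors' deposited table. Lef1, the remaining factor of that family, was scarce, with a base mean of 5.22 and -1.55 ± 0.97 (SE) in the authors' deposited table. Nkd1, which binds Dishevelled and damps the signal, had -0.35 ± 0.47 (SE) in the authors' deposited table. Of the summed level of the 4 TCF/LEF genes per kilobase of exon, 467 in control and 307 in Atg5-KD, Tcf7 took 72.1% and 75.9%. These shares depend on the length used. With the length of the longest transcript, control levels were 358 for Tcf7, 126 for Tcf7l2, 98.2 for Tcf7l1 and 2.13 for Lef1.

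**Figure D3:**
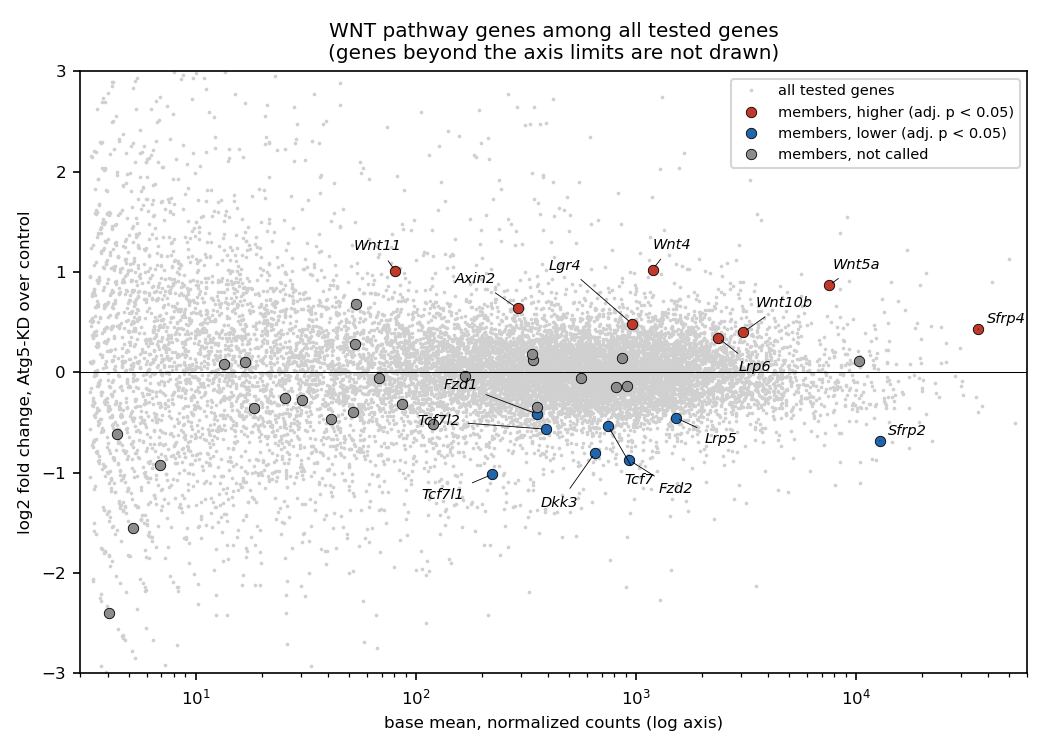
Log2 fold change against base mean on a log axis for all tested genes (grey dots) and the 41 members (large points coloured by call). The called members lie between base means of 80.9 for Wnt11 and 36044 for Sfrp4, and members not called spread more widely at low base means.

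Other genes of the pathway were counted from lists that hold no member. In the destruction complex and relay, 5 of 20 genes rose and 5 fell in the authors' deposited table, with a median of 0.17. Usp34, a deubiquitinase of Axin, had 0.86, and Tnks2, a tankyrase that marks Axin for degradation, had 0.45 in the authors' deposited table. Csnk1g2, a casein kinase, had -0.38 and Dvl2, a Dishevelled protein, -0.46 in the authors' deposited table. After removal of the trend with GC and length 2 of these 20 rose and 0 fell, and scaled to all reads 1 rose and 9 fell.

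Of 16 nuclear cofactors 6 fell and 1 rose in the authors' deposited table, with a median of -0.23. Bcl9l and Pygo2, which link beta-catenin to chromatin, had -0.63 and -0.54, Ctnnbip1, which blocks binding of beta-catenin to TCF, -0.64, and the co-repressor Tle1 -0.43 in the authors' deposited table. The 1 higher cofactor was Tle2, another Groucho co-repressor, at 0.44 in the authors' deposited table, named after its value was seen. After removal of the trend with GC and length 5 fell and 1 rose, and scaled to all reads 10 fell and 0 rose.

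For WNT secretion and extracellular partners 11 of 16 rows were tested, and 1 rose and 2 fell in the authors' deposited table. Draxin, a secreted inhibitor, had 1.38 ± 0.26 (SE), the glypican Gpc6 -0.89 ± 0.14 (SE), and Porcn, which attaches the lipid to WNT proteins, -0.40 ± 0.13 (SE) in the authors' deposited table. Scaled to all reads, 1 of these 11 rose and 8 fell. Receptors and polarity genes that work without beta-catenin gave 1 rise and 3 falls among 21 in the authors' deposited table, namely Daam1 at 0.34, Vangl2 at -0.44, Ptk7 at -0.30 and Camk2d at -0.40. In that list 0 rose and 12 fell when scaled to all reads. Of reported WNT target genes, many of which other pathways also control, 2 of 21 tested rose and 4 fell in the authors' deposited table, with a median of -0.35. Id2 at 0.78 and Runx2 at 0.61 rose, and Mmp14 at -0.46 and Mycn at -1.04 were among those that fell in the authors' deposited table. With all reads as the scale, 2 of these targets rose and 12 fell, with a median of -0.65. The shares called in these 5 lists in the authors' deposited table, from 4 of 21 to 10 of 20, stand beside 20.9% of all tested rows. Of rows with a base mean of at least 100, 25.6% were called, and the destruction complex list had a lowest base mean of 372. Scaled to all reads, 42.3% of all 14835 tested rows were called, 534 higher and 5735 lower, with a median of -0.29.

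**Figure D4:**
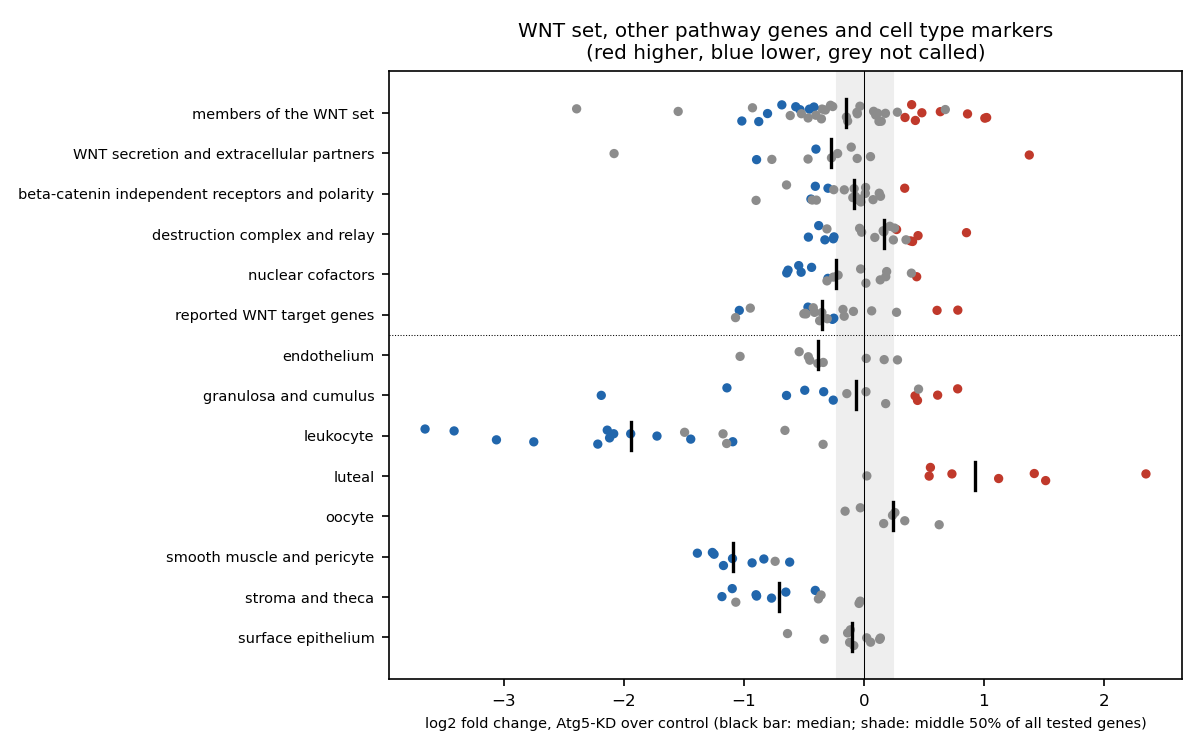
Log2 fold change of tested genes in the WNT set, 5 lists of other pathway genes (above the dotted line) and 8 lists of cell type markers (below), with medians as black bars and the middle 50% of all tested genes shaded. Markers of leukocytes, smooth muscle and stroma lie left of 0 and luteal markers right of 0, and the WNT set spreads to both sides; scaled to all reads, every value would lie 0.30 further left.

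Markers of cell types moved between the groups beside these results. In bulk RNA, fewer cells of a type and less RNA per cell cannot be told apart. Granulosa markers were present, with base means of 30063 for Inha, 1816 for Foxl2 and 93.4 for Fshr in the authors' deposited table, while the aromatase Cyp19a1 was at 2.34 and below the tested range. Of 14 tested granulosa and cumulus markers 4 rose and 6 fell in the authors' deposited table, and 2 rose and 7 fell when scaled to all reads. They ranged from Slc38a3, which imports amino acids, at -2.19 and the inhibin subunit Inhbb at -1.14 to Kitl, the ligand of the oocyte receptor Kit, at 0.78 in the authors' deposited table, genes named after their values were seen. The estimated sum of these markers was 107123 normalized counts in control and 101676 in Atg5-KD. Stroma and theca markers fell in 7 of 12 cases and rose in 0 in the authors' deposited table, and their estimated summed level went from 10134 to 6297 normalized counts, with the theca enzyme Cyp17a1 at a base mean of 0.131. Smooth muscle and pericyte markers fell in 8 of 9 cases, from a sum of 12597 to 5665. Leukocyte markers fell in 12 of 17 cases, from a sum of 2426 to 631. Luteal markers rose in 7 of 8 cases, from a sum of 91295 to 161515. Surface epithelium, endothelium and oocyte markers were called in 0 of 10, 0 of 9 and 0 of 7 cases in the authors' deposited table, with Figla of the oocyte list at 0. As deposited, 10.4% of all tested rows were called higher and 10.5% lower. Scaled to all reads, 534 of all 14835 tested rows were called higher and 5735 lower. In that setting 5 of 10 surface epithelium and 1 of 9 endothelium markers were called lower. Falls in that setting numbered 10 of 12 for stroma and theca, 9 of 9 for smooth muscle and 16 of 17 for leukocytes, and luteal markers rose in 7 of 8. The part of these shifts in the falls of Sfrp2, Dkk3, Fzd2 and the TCF genes, or in the rises of Sfrp4, Wnt4 and Wnt5a, was not tested.

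Base composition also moved with the fold changes. Over all tested genes the median log2 fold change went from 0.22 in the tenth of lowest GC content to -0.23 in the tenth of highest. The 8 members that rose had a median GC content of 49.3%, beside 53.8% for the 8 that fell. Wnt4 at 55.9%, Wnt11 at 56.5% and Axin2 at 54.6% rose against this trend, and Tcf7l2 at 47.3% fell against it. Sfrp4 at 44.4%, Lrp6 at 46.0%, Lgr4 at 46.3% and Wnt5a at 46.7% rose with it. Tcf7l1 at 59.3%, Fzd2 at 56.6%, Fzd1 at 55.7% and Lrp5 at 54.7% fell with it. Wnt10b, Sfrp2, Tcf7 and Dkk3 had GC contents between these, from 51.0% to 52.9%. After removal of the trend with GC and length, 8 members were higher, 7 of them called before, and 7 lower, all called before. Wnt4 and Wnt11 both stood at 1.22 and Axin2 at 0.77 in that setting.

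**Figure D5:**
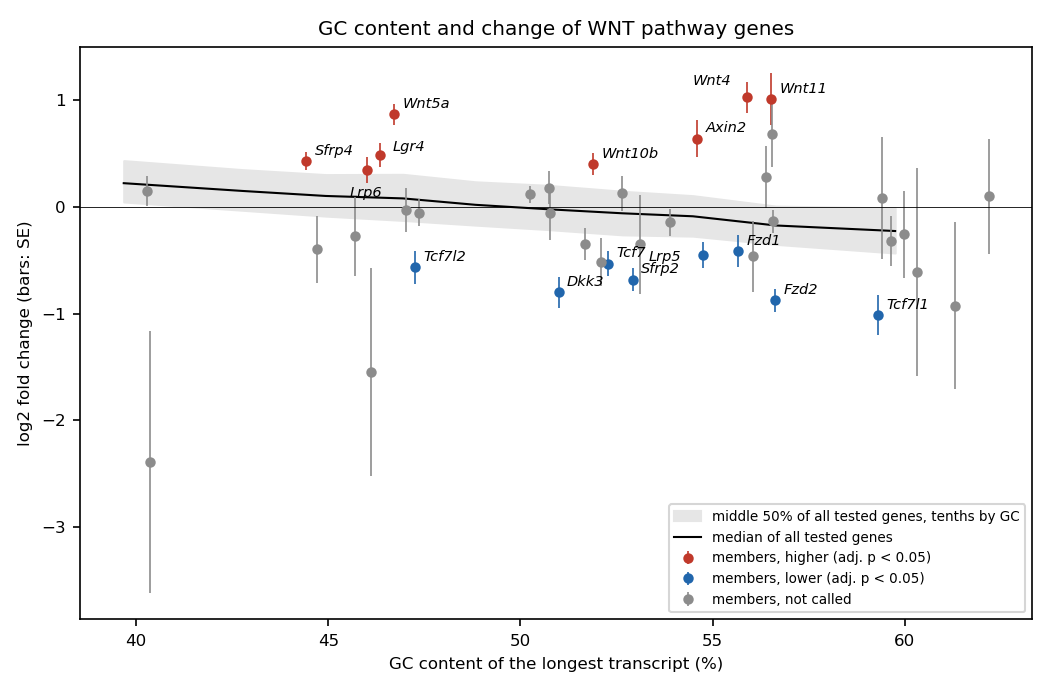
Log2 fold change against GC content of the longest transcript for the 41 members (points coloured by call, bars: SE), with the median of all tested genes as a line and their middle 50% shaded. Wnt4, Wnt11 and Axin2 lie above the line at GC contents over 54%, and Tcf7l2 below it at 47.3%. Other called members moved with the line, among them Sfrp4, higher at 44.4%, and Tcf7l1, lower at 59.3%.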

How the data were processed

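Poly(A) RNA of 6 libraries was sequenced, 3 control and 3 Atg5-KD. The submitters' processing notes list build mm10 and the tools DESeq2 1.30.1, featureCounts 1.6.2, STAR and StringTie 2.1.4, without saying what each did. Per the labels' protocols a NEBNext Ultra kit is described beside amplified cDNA and a TruePrep kit. Strand use in counting is not stated. The authors deposited 1 table of the comparison: a base mean (a signal of size-factor normalized counts), a log2 fold change and its SE, a Wald score, and p-values with adjusted p-values. The Wald score equalled log2 fold change over SE and the adjusted p its Benjamini-Hochberg value over 14835 rows, with 0 rows differing by over 1e-06. The summed base means were 1.45e+07 normalized counts, and 0 columns held values per library, so precision is given by the SE alone.

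The count test planned for values per library was not run, and the authors' Wald test was used instead. Control level was computed as 2 times base mean over 1 plus the fold, and 95% intervals as 1.96 SE. Exon length and GC content came from GENCODE vM21 (GRCm38) and matched all 41 members and 99.2% of tested rows. Computation used Python 3.11.15, numpy 2.4.6, scipy 1.17.1 and pandas 2.3.3, and was tested on simulated data. Named genes were all members, in full those called and the 2 of highest base mean in each role, and up to 4 called genes in each other list. The members and lists were chosen with earlier results of these data known. Alternatives were 2 scalings, centring, 2 filters on base mean, removal of the trend in GC content and length, and 2 stricter tests.

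Where strand is unknown, reads of antisense genes cannot be told apart. Exons on the opposite strand cover 17.8% of Fzd5, 16.1% of Sfrp2, 14.6% of Ctnnb1, 13.8% of Lef1 and 8.8% of Wnt11. Smaller shares were 6.61% of Wnt7b, 4.58% of Wnt5a, 4.56% of Tcf7l1, 3.8% of Axin2 and 3.15% of Fzd6. The partner of Ctnnb1, Ulk4, had a base mean of 61.4.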

Additional observations from a re-analysis of the deposited data

How the results depend on the processing

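The counts of members held within 1.5 times when values were centred on the median, unfiltered, limited to a base mean of at least 10, or called at an adjusted p under 0.01, and when scaled to all reads other than Rn45s, a setting chosen after seeing the data that shifted values by -0.03. Scaled to the total of all reads, 3 members were higher and 15 lower, in place of 8 and 8; all 3 and 8 of the 15 were calls of the deposited table. Sign then turned for 7 members without a call there: Ctnnb1 (-0.18), Wnt9a (-0.018), Wnt7b (-0.22), Fzd3 (-0.15), Fzd5 (-0.17), Znrf3 (-0.12) and Fzd9 (-0.20). Removing the GC and length trend, Axin1 (0.064), Wnt5b (0.018) and Fzd3 (-0.18) turned, and the calls of Lrp6 and Fzd1 ended. At an adjusted p under 0.01 those 2 calls also ended. Tested against an absolute log2 fold change of 0.25, 3 members were higher (Wnt4, Wnt5a, Wnt11) and 4 lower (Fzd2, Tcf7l1, Sfrp2, Dkk3). Over all tested rows, 1541 were higher and 1559 lower as deposited, 534 and 5735 scaled to all reads, 965 and 1096 without the GC and length trend, 1026 and 1030 at an adjusted p under 0.01, and 423 and 387 against 0.25. No paired analysis was possible because the table holds no values per library, and leaving out each replicate and another count normalization were not run for the same reason. Levels per coding length were not run, since no protein lengths were used here. Depth limits members under a base mean of about 10, whose SE was at least 0.78.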

Other observations

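Neighbouring genes were looked at for the 16 called members, taking the nearest protein-coding gene on each side in GENCODE vM21. Of 32 neighbours 26 were tested and 8 called in the authors' deposited table, 30.8% beside 20.9% of all tested rows, with 4 in the direction of the member and 4 against it. Wnt10b lies between Arf3, a small GTPase of the Golgi, and Wnt1. Arf3 lies 7.50 kilobases away on the same strand with a base mean of 4616 and a log2 fold change of -0.05 ± 0.10 (SE), and Wnt1 lies 11.7 kilobases away with a base mean of 0.122, in the authors' deposited table. Wnt10b, at a base mean of 3083 in that table, was thus abundant beside a nearly silent Wnt1. Sfrp4 lies 3.18 kilobases from Epdr1, which was also higher, at 0.26 ± 0.08 (SE), and Wnt4 lies 20.0 kilobases from Cdc42, higher at 0.33 ± 0.10 (SE), in the authors' deposited table. Dkk3, which fell, lies 4.36 kilobases from Usp47, which rose at 0.38 ± 0.09 (SE), and Lgr4, which rose, lies 3.56 kilobases from Ccdc34, which fell at -0.46 ± 0.14 (SE), in the authors' deposited table. These neighbours were named after their values were seen.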
